A study of Mus musculus with 15 samples.

Results

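The sarcomere stretch and strain response genes comprised 10 transcripts of striated muscle: Ankrd1, Ankrd2, Xirp1, Xirp2, Csrp3, Flnc, Nrap, Ttn, Neb and Myot. They were found by gene symbol in a table of 14272 named genes, and all 10 were present. The table holds RNA sequencing of quadriceps, a thigh muscle, from male DBA/2J-mdx mice, which lack dystrophin and serve as a model of Duchenne muscular dystrophy. It covers 3 groups of 5 libraries each. Mice of the daily group were injected intraperitoneally with the synthetic glucocorticoid prednisone, 1 mg/kg on 7 occasions a week. Those of the weekly group had 1 such dose and 6 vehicle injections a week, and those of the vehicle group had 7 injections of the solvent DMSO a week. All 15 libraries therefore came from dystrophic muscle of repeatedly injected males, and no healthy muscle was analysed here. Age is given as 6 months in the description of the study and as about 7 months in the sample labels, and the sources used here do not give the length of treatment. Since the labels leave unsaid whether each library is a different animal, all p-values reflect the spread between samples alone, which could be technical.

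The sarcomere is the contractile unit of a muscle fibre, bounded by Z-discs. Titin spans from the Z-disc to the middle of the sarcomere and acts as its spring, and nebulin lies along the thin filament. Muscle ankyrin repeat proteins bind the N2A region of titin, while filamin C and the Xin repeat proteins gather at Z-discs, at myotendinous junctions and at sites of fibre damage. In striated muscle several of these genes are known to be induced by stretch, overload, injury or denervation.

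RefSeq promoter windows (GRCm38.p6) were held for 7 of the 10 genes, and Xirp1, Neb and Myot could not be searched. The 3 shown here are those with a match to the MCAT element or to AGAACA, both described below. Weekly values of their genes lay mostly above vehicle. So did those of Ankrd2, whose window held neither match and is not shown, and those of Xirp1, which had no window. Each window is the 250 bases before the RefSeq start, read 5′ to 3′ on the strand of the gene. In the Ankrd1 and Flnc windows the capitals mark matches to the MCAT element CATTCC on either strand, which TEAD factors are known to bind. In the Csrp3 window they mark a match, on the other strand, to AGAACA, a hexamer of the glucocorticoid receptor element.
Ankrd1, chr19:36119845-36120094, minus strand: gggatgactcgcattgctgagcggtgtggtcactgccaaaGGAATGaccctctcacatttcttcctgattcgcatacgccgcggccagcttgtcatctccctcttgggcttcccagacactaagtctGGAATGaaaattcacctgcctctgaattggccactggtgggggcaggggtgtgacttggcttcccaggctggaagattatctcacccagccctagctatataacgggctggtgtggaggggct
Flnc, chr6:29433006-29433255, plus strand: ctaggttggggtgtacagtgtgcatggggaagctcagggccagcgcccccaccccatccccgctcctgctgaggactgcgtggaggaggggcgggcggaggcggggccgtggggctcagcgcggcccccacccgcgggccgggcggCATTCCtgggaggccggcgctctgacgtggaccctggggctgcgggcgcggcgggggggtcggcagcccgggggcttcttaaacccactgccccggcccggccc
Csrp3, chr7:48848052-48848301, minus strand: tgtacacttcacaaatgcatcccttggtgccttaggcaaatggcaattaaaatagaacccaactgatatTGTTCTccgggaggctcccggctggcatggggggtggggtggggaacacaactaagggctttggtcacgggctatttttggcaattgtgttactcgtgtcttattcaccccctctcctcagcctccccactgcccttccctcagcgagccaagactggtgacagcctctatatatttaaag

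The Ankrd1 window held MCAT matches at bases 210 to 205 and 123 to 118 before the start, and the Flnc window held 1 at bases 104 to 99. No other of the 7 windows held one, against 12.6% of all 32851 windows searched on both strands. The Csrp3 window held the only AGAACA match, at bases 181 to 176, against 16.1% of all windows. None of these matches overlapped another motif. An E-box (CANNTG) was found in 6 of the 7 windows, against 66.2% of all windows. The MEF2 motif was found in the windows of Xirp2 and Ttn (2.92% of all windows) and the CArG box of SRF in none of the 7 (1.47% of all windows). These are matches of letters only, and the RefSeq start of Ankrd1 lies 255 bases from the GENCODE gene end.

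On GRCm38, with GENCODE M21 gene models, Ankrd1 lay at chr19:36111961-36120099 on the minus strand and Ankrd2 at chr19:42036000-42045110 on the plus strand. Xirp1 lay at chr9:120013755-120023598 (minus), Xirp2 at chr2:67446002-67526614 (plus), Flnc at chr6:29433256-29461883 (plus) and Csrp3 at chr7:48830398-48848033 (minus). Nrap lay at chr19:56320035-56390037 (minus), Ttn at chr2:76703980-76982547 (minus), Neb at chr2:52136647-52378474 (minus) and Myot at chr18:44334074-44355724 (plus). All 10 are protein-coding genes, and the deposited counts are sums over each gene. Xirp1 lies within the span of Cx3cr1 on the same strand but shares no exon base with it. Nrap shares 268 exon bases, 4.87% of its exon length, with Habp2 on the opposite strand. The sources used here do not state whether counting used the strand.

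Values were CPM, counts scaled to a common library total and not divided by gene length. Depth was between 2780768 and 11052552 reads per library, and the smallest count behind any of the 10 genes was 212 reads, for Csrp3 in daily library 3. The 5 vehicle libraries were nearly alike, with a biological coefficient of variation of 3.55%, against 9.40% among daily and 29.4% among weekly libraries. Weekly library 4 was the shallowest and had 25027 CPM summed over 8 fibroblast and matrix markers, where the weekly median was 3130 CPM and the vehicle libraries reached 2230 CPM. In daily library 3 the gene model Gm26924 took 20.5% and Lars2 7.79% of all CPM, where the vehicle libraries had at most 0.194% and 0.145%, so the share left for other genes was smaller there. For the 10 genes, values without 1 or both of these libraries are given for changes against vehicle. This was done where leaving them out ended a call, turned a direction or moved a change by over 1.5 times. Between the regimens such values are given for some genes only. The change of the median gene was −0.08 in daily against vehicle, 0.17 in weekly against vehicle and −0.24 in daily against weekly on the log2 scale, and TMM scaling, a rescaling by the bulk of genes, brought it to between 0.0012 and 0.0124.

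Under weekly prednisone, Xirp1, Csrp3 and Ankrd1 rose relative to vehicle, and none of the 10 genes fell. With daily prednisone no gene of the 10 passed the test against vehicle, although Ankrd1, Ankrd2, Xirp1, Csrp3 and Flnc were each above every vehicle library in 4 of 5 daily libraries. Between the regimens Csrp3 was lower in daily than in weekly libraries. The long filament transcripts Ttn and Neb, with Nrap and Xirp2, lay below every vehicle library in all 5 daily libraries without passing the test. Changes are log2 differences of CPM + 0.5 from limma fitted to all 15 libraries, with Benjamini-Hochberg adjustment over the 14059 genes tested, and a gene was called at an adjusted p under 0.05. The 3 called of 10 in weekly against vehicle stand beside 8.06% of all genes called (6.99% upward), the 0 called in daily against vehicle beside 3.89%, and the 1 called in daily against weekly beside 8.73% (8.24% downward). In daily against vehicle an unadjusted p under 0.05 was found for 2 of the 10. On recovered reads of that comparison edgeR called 1 of the 10, beside 9.48% of all genes, and DESeq2 called 2, beside 11.4%. With TMM scaling 2 of the 10 were called in weekly against vehicle (9.94% of all genes), 1 when daily was set against vehicle (9.06%) and 0 when it was set against weekly (4.72%). With weekly library 4 and daily library 3 left out, 4 of the 10 were called in weekly against vehicle (23.7%), 2 for daily relative to vehicle (17.2%) and 0 for daily relative to weekly libraries (14.5%). The median change of the 10 genes with the deposited scaling and all libraries was −0.11 for daily and 0.26 for weekly libraries relative to vehicle, and −0.35 for daily relative to weekly libraries. Without both libraries the median was 0.11 for daily and 0.15 for weekly libraries relative to vehicle, and −0.16 between daily and weekly. The median of all genes was then 0.04 for daily and 0.15 for weekly libraries relative to vehicle, and −0.10 between daily and weekly. Relative to vehicle, the daily median changed its sign both for the 10 genes and for all genes.

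**Figure D1:**
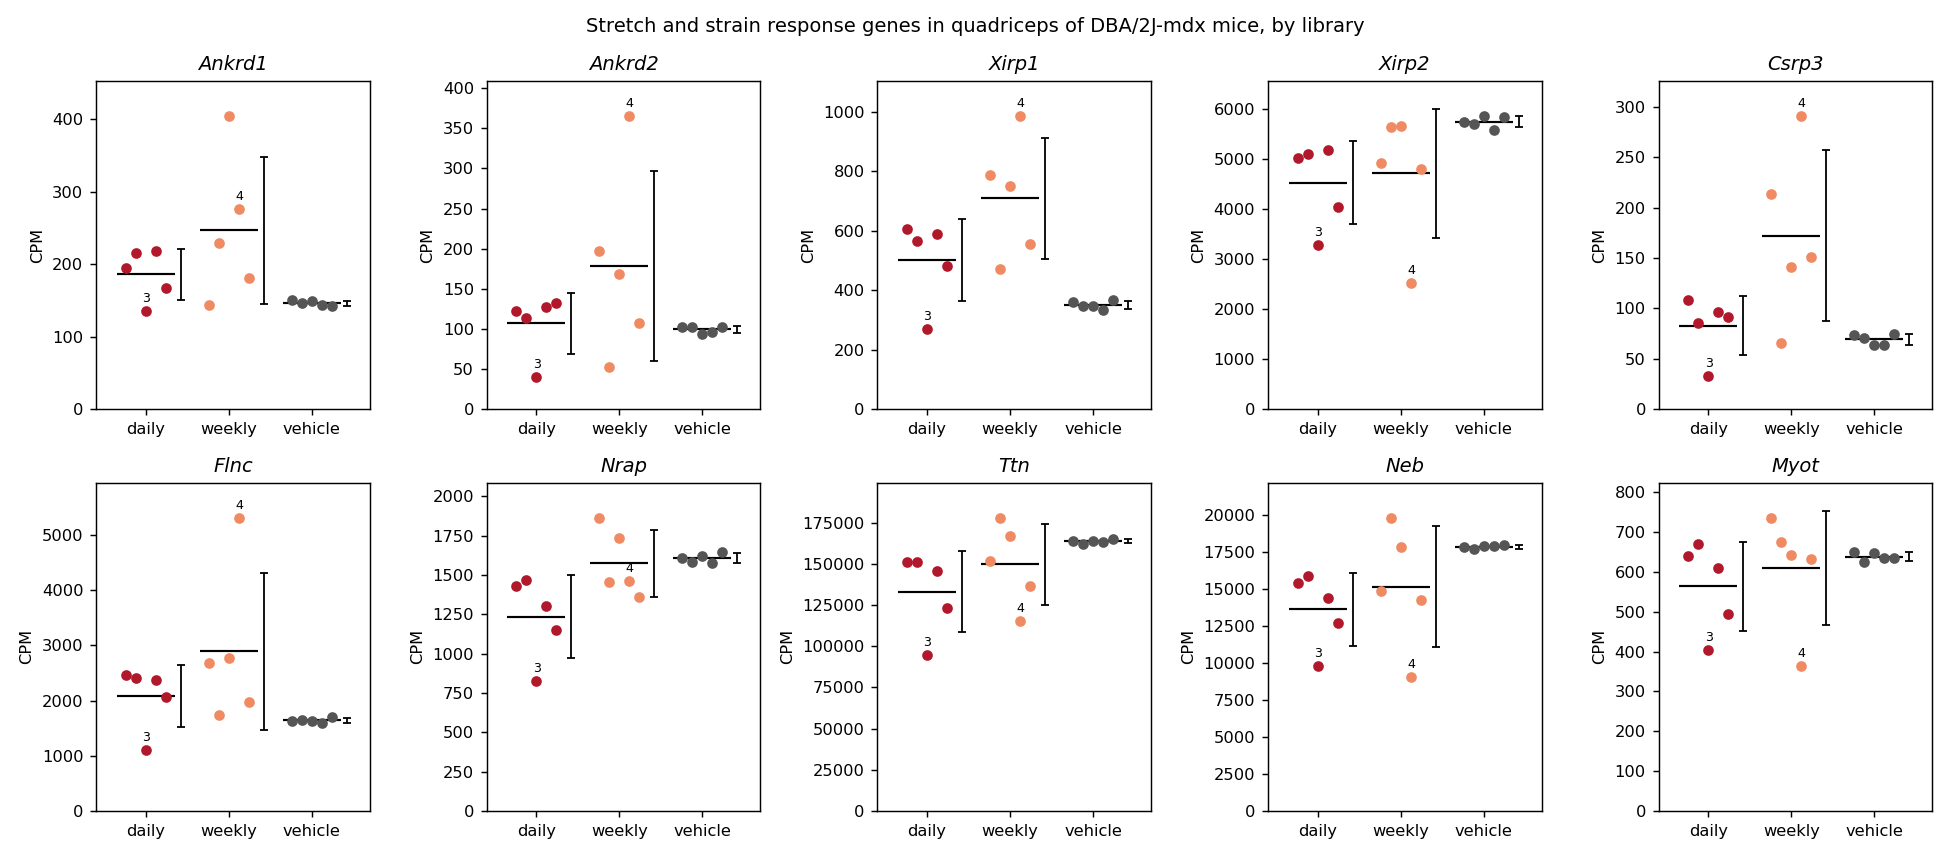
CPM of each of the 10 genes in every library (points, by group on the x axis), with group means (lines) and SD (bars, n = 5 each); the numbers 3 and 4 mark daily library 3 and weekly library 4. Xirp1 lay between 471 and 986 CPM in the weekly libraries, above the highest vehicle library at 367 CPM, and daily library 3 was the lowest daily library for all 10 genes.

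Ankrd1 encodes CARP, a stretch-responsive ankyrin repeat protein that binds titin at N2A and also enters the nucleus. It stood at 194, 216, 135, 218 and 168 CPM in daily libraries 1 to 5, at 144, 229, 404, 276 and 181 CPM in weekly libraries 1 to 5, and at 151, 146, 149, 144 and 142 CPM under vehicle 1 to 5. In both prednisone groups 4 of 5 libraries were above all vehicle libraries, the exceptions being daily library 3 and weekly library 1. The weekly change was 0.66 (SE 0.20, limma adjusted p = 0.0463), or 0.49 beyond the median gene. The gene was called under 11 of the 30 alternative settings. It was not called with TMM scaling (0.48, adjusted p = 0.0893), and without weekly library 3 the change was 0.46 (adjusted p = 0.135). The daily change was 0.33 (95% interval −0.09 to 0.74, adjusted p = 0.439). Daily against weekly, Ankrd1 differed by −0.33 (limma adjusted p = 0.278), and the 30 alternatives ran from −0.65 to −0.05.

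Ankrd2, a relative of Ankrd1 known from slow fibres and also induced by stretch, varied most between libraries of all 10 genes, with a coefficient of variation of 66.5% in the weekly group. Its daily values were 123, 114, 40.1, 127 and 132 CPM, its weekly values 197, 52.7, 168, 365 and 107 CPM, and its vehicle values 103, 102, 94.2, 95.8 and 103 CPM, for libraries 1 to 5 of each group. Each prednisone group thus had 4 libraries above and 1 below all vehicle libraries, and Ankrd2 was called in neither comparison. The weekly change was 0.56 (95% interval −0.18 to 1.31, limma adjusted p = 0.339) and the daily change −0.01 (−0.75 to 0.73, adjusted p = 0.994). Without weekly library 4 the weekly change was 0.24, and without daily library 3, whose 40.1 CPM was far below the other daily libraries, the daily change was 0.31 (limma adjusted p = 0.696). Daily against weekly, Ankrd2 differed by −0.57 (limma adjusted p = 0.297). Its direction was not stable, since 28 of the 30 alternatives kept the sign and the highest gave 0.19.

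Xirp1 encodes Xin, an actin-binding repeat protein found at myotendinous junctions and in damaged or regenerating fibres. It was measured at 605, 566, 269, 590 and 483 CPM in daily libraries 1 to 5, at 789, 471, 750, 986 and 555 CPM in weekly libraries 1 to 5, and at 360, 347, 346, 333 and 367 CPM under vehicle 1 to 5. Every weekly library was above every vehicle library, and so were all daily libraries except number 3. The weekly change was 0.97 (SE 0.21, limma adjusted p = 0.00512), or 0.80 beyond the median gene, and was 0.84 (adjusted p = 3.6e-05) without weekly library 4 and daily library 3. The daily change of 0.46 (SE 0.21, adjusted p = 0.258) did not pass. It passed with TMM scaling (0.55, adjusted p = 0.0316), where daily library 3 stood at 413 TMM-scaled CPM against at most 374 in vehicle, and without daily library 3 (0.67, adjusted p = 0.0207). Between daily and weekly the difference was −0.51 (95% interval −0.94 to −0.08, adjusted p = 0.114), and −0.17 without both libraries.

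Flnc encodes filamin C, the muscle filamin that crosslinks actin at the Z-disc and is unfolded under load, and Xin binds it. Its values were 2469, 2402, 1108, 2366 and 2057 CPM in daily libraries 1 to 5, 2680, 1748, 2768, 5312 and 1972 CPM in weekly libraries 1 to 5, and 1636, 1652, 1637, 1585 and 1694 CPM under vehicle 1 to 5. As with Xirp1, all 5 weekly libraries and 4 of 5 daily libraries exceeded every vehicle library. Neither change passed, at 0.70 (SE 0.25, limma adjusted p = 0.0858) in weekly and 0.29 (SE 0.25, adjusted p = 0.617) in daily against vehicle. With weekly library 4 and daily library 3 left out together, the changes were 0.45 (adjusted p = 0.0075) and 0.50 (adjusted p = 0.00487). Daily against weekly, Flnc differed by −0.42 (limma adjusted p = 0.278). This direction was not stable either, since 28 of the 30 alternatives kept the sign and the highest gave 0.16. Xirp1 and Flnc were the 2 of 10 genes whose weekly libraries all lay above vehicle, beside 11.8% of all genes, and no gene of the 10 had all daily libraries above vehicle, beside 2.45%.

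Xirp2 encodes the larger Xin relative, also called myomaxin or XIRP2, at Z-discs and intercalated discs. It gave 5028, 5095, 3288, 5175 and 4039 CPM in daily libraries 1 to 5, 4927, 5643, 5659, 2530 and 4805 CPM in weekly libraries 1 to 5, and between 5586 and 5858 CPM under vehicle. All daily libraries lay below all vehicle libraries, whereas 3 weekly libraries did. Its changes were −0.37 in daily (95% interval −0.82 to 0.09, limma adjusted p = 0.416) and −0.34 in weekly libraries (−0.79 to 0.11, adjusted p = 0.34). Without weekly library 4 the weekly change was −0.13 (adjusted p = 0.683). The pair of Xin genes therefore differed in sign: Xirp1 per 1000 CPM of Xirp2 was 109 ± 15.9 in daily, 176 ± 123 in weekly and 61.0 ± 1.70 in vehicle libraries (SD, n = 5 each). Without weekly library 4 the weekly ratio was 123 ± 32.1 (SD, n = 4).

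Csrp3 encodes muscle LIM protein, a Z-disc protein of slow fibres and heart that is linked to the sensing of strain. It stood at 108, 85.3, 32.8, 96.1 and 91.7 CPM in daily libraries 1 to 5, at 213, 65.3, 141, 291 and 151 CPM in weekly libraries 1 to 5, and at 73.8, 70.6, 64.0, 63.6 and 74.7 CPM under vehicle 1 to 5. Weekly libraries 1, 3, 4 and 5 were above all daily and all vehicle libraries, and weekly library 2 was within the vehicle range. The weekly change was 1.15 (SE 0.31, limma adjusted p = 0.0236), the largest of the 10 genes, and 0.98 beyond the median gene. It was 0.92 (adjusted p = 0.00216) without weekly library 4 and daily library 3. The daily change was 0.15 (95% interval −0.48 to 0.79, adjusted p = 0.854), and 0.45 (adjusted p = 0.125) without both libraries. Daily against weekly, Csrp3 fell by 0.997 (SE 0.31, adjusted p = 0.0456), or by 0.76 beyond the median gene. That call was lost with TMM scaling (−0.73, adjusted p = 0.147), without daily library 3 (−0.69, adjusted p = 0.159) and without both that library and weekly library 4 (−0.47, adjusted p = 0.143).

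Nrap encodes a nebulin-related anchoring protein that takes part in myofibril assembly at fibre ends. It was read at 1432, 1472, 824, 1304 and 1151 CPM in daily libraries 1 to 5, at 1864, 1457, 1737, 1459 and 1358 CPM in weekly libraries 1 to 5, and at 1577 to 1649 CPM under vehicle. Daily libraries all lay below vehicle, and weekly libraries lay on both sides of it. The daily change was −0.41 (SE 0.16, unadjusted p = 0.0207, limma adjusted p = 0.196), the weekly change −0.04 (95% interval −0.38 to 0.30, adjusted p = 0.909), and daily against weekly −0.37 (adjusted p = 0.144). Without both libraries the daily change was −0.27 (adjusted p = 0.0645) and the weekly change −0.02.

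Ttn encodes titin, and its transcript alone took between 9.45% and 17.8% of all CPM. It averaged 133227 ± 24524 CPM in daily, 149718 ± 24797 CPM in weekly and 163821 ± 1061 CPM under vehicle (SD, n = 5 each). Each daily library was below the lowest vehicle library at 162319 CPM, the highest reaching 151471 CPM, while weekly libraries ran between 115097 and 177959 CPM. The change was −0.32 in daily (95% interval −1.12 to 0.48, limma adjusted p = 0.729) and −0.15 in weekly libraries (−0.95 to 0.65, adjusted p = 0.853), and without both libraries −0.20 in daily and −0.06 in weekly libraries. The SE of these changes was 0.39 with the mean-variance trend of the fit and 0.16 without it, and neither setting called Ttn.

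Neb encodes nebulin, the ruler of the skeletal thin filament. Its mean was 13629 ± 2476 CPM in daily, 15148 ± 4103 CPM in weekly and 17848 ± 116 CPM under vehicle (SD, n = 5 each), with the highest daily library at 15860 CPM below the lowest vehicle library at 17666 CPM. The change was −0.41 in daily (adjusted p = 0.423) and −0.29 in weekly libraries (limma adjusted p = 0.494), the weekly change being −0.11 without weekly library 4. Xirp2, Nrap, Ttn and Neb were the 4 of 10 genes whose daily libraries all lay below vehicle, beside 8.82% of all genes with the deposited scaling. With TMM scaling their highest daily values were 5061, 1425, 149922 and 15356 CPM, against lowest vehicle values of 5720, 1615, 165921 and 18012 CPM. The share of all genes separated in this way with TMM scaling was not counted, so this separation cannot be weighed.

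Myot encodes myotilin, an actin-bundling Z-disc protein that binds alpha-actinin and filamin C. It averaged 564 ± 111 CPM in daily, 610 ± 143 CPM in weekly and 638 ± 10.4 CPM under vehicle (SD, n = 5 each). The groups overlapped, with weekly library 4 lowest at 364 CPM and weekly library 1 highest at 735 CPM. The change was −0.20 (95% interval −0.57 to 0.16, limma adjusted p = 0.61) in daily and −0.11 (−0.47 to 0.26, adjusted p = 0.746) in weekly libraries. The weekly change turned to 0.07 (adjusted p = 0.805) without weekly library 4, and the daily change was −0.09 without daily library 3. In daily against weekly, Xirp2, Ttn, Neb and Myot had changes between −0.17 and −0.02 that turned positive with TMM scaling, between 0.09 and 0.24, and that lay between −0.18 and −0.12 without both libraries; none of these passed.

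**Figure D2:**
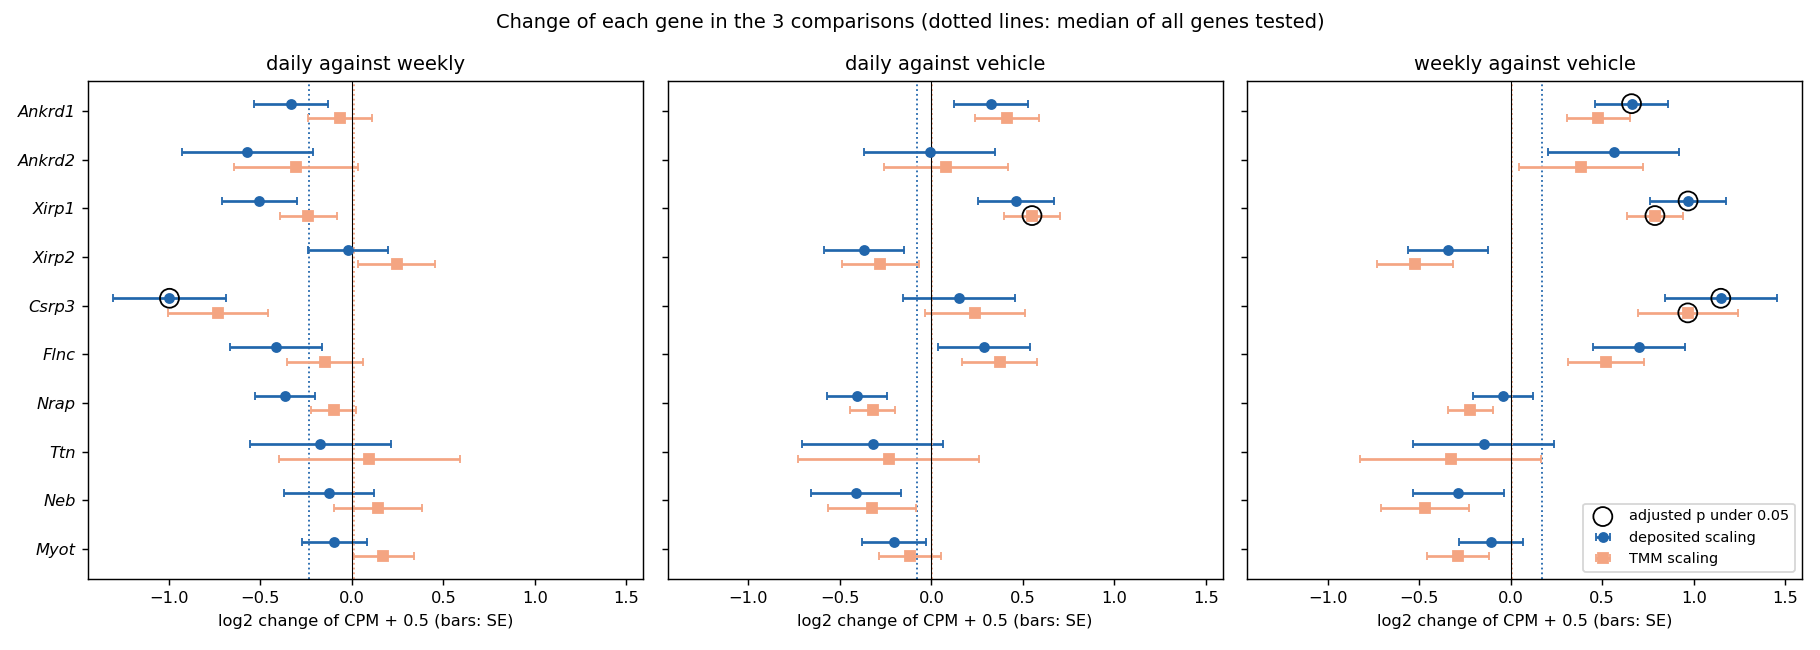
Log2 change (x axis, CPM + 0.5) of each gene (y axis) in daily against weekly, daily against vehicle and weekly against vehicle, with the deposited and with TMM scaling; bars are SE, rings mark an adjusted p under 0.05 and dotted lines the median of all genes tested. Xirp1 and Csrp3 were called in weekly against vehicle with both scalings, whereas Ankrd1 (0.66) in weekly against vehicle and Csrp3 (−0.997) in daily against weekly were called with the deposited scaling only.

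Since the share left for other genes differed between libraries, each gene was also set against Ttn within its own library, a description chosen after the values were seen. Xirp1 per 1000 CPM of Ttn was 3.71 ± 0.50 in daily, 4.99 ± 2.20 in weekly and 2.14 ± 0.07 in vehicle libraries (SD, n = 5 each), and all 5 libraries of both prednisone groups were above all vehicle libraries. Ankrd1 gave 1.40 ± 0.08 in daily, 1.68 ± 0.69 in weekly and 0.89 ± 0.02 in vehicle libraries, with the same separation. Flnc gave 15.4 ± 2.05 in daily, 20.9 ± 14.4 in weekly and 10.02 ± 0.22 in vehicle libraries, and here weekly library 2 fell inside the vehicle range. Without daily library 3 and weekly library 4 the Flnc ratio was 16.3 ± 0.32 in daily and 14.6 ± 3.47 in weekly libraries (SD, n = 4 each), so the order of the regimens turned. Myot was slightly higher relative to Ttn in all daily libraries (4.23 ± 0.15, against 3.90 ± 0.06 in vehicle), and Neb slightly lower (102 ± 2.24, against 109 ± 0.39 in vehicle). The 5 of 9 genes whose daily and vehicle libraries did not overlap on this scale stand beside 28.5% of all genes, the 2 of 9 in weekly against vehicle beside 12.9%, and the 0 of 9 in daily against weekly beside 2.39%. Since all of these ratios contain Ttn, they show unequal change of the transcripts and not which of them moved.

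**Figure D3:**
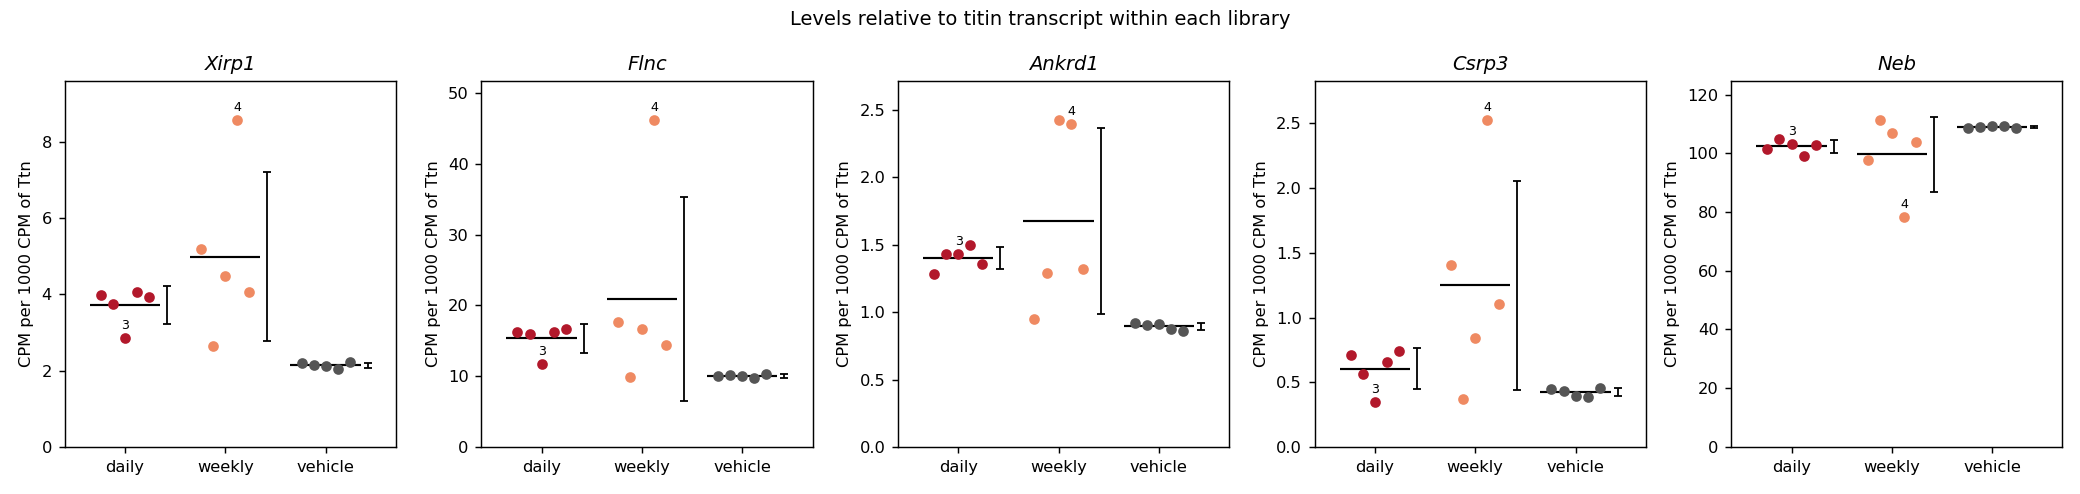
CPM per 1000 CPM of Ttn (y axis) for 5 genes in every library (points, by group on the x axis), with means (lines) and SD (bars, n = 5 each); 3 and 4 mark daily library 3 and weekly library 4. All daily libraries lay above all vehicle libraries for Xirp1, Flnc and Ankrd1 and below them for Neb.

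Within the vehicle group the levels per kilobase of merged exon length were in the order Ttn (1402 CPM per kb), Neb (671), Xirp2 (480), Nrap (292), Myot (289), Flnc (175), Ankrd2 (87.3), Xirp1 (60.0), Ankrd1 (50.7) and Csrp3 (26.0). Of these neighbours Nrap and Myot overlapped between libraries and the others did not. Flnc moved ahead of Nrap and Myot in the weekly group, at 308 ± 151 CPM per kb, where its range of 186 to 565 overlapped both. That rank rested on weekly library 4: without it Flnc was at 244 ± 54.1, behind Myot at 304 ± 21.0 and Nrap at 291 ± 42.9 CPM per kb (SD, n = 4 each). In the daily group Myot (255 ± 50.5 CPM per kb), Nrap (225 ± 47.7) and Flnc (221 ± 60.2) overlapped.

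Lists of genes that work with these 10 were examined in the same fit. Of all genes, edgeR called 11.3% in weekly against vehicle and 5.31% between the regimens, while DESeq2 called 13.5% in weekly against vehicle and 7.59% between the regimens. Of 18 partners of titin, limma called 0 in weekly against vehicle, where 3 genes passed an unadjusted p of 0.05. There edgeR called 1, which fell, and DESeq2 called 2, of which 1 rose and 1 fell. In daily libraries 1 fell relative to vehicle and 1 relative to weekly libraries, and the list's median change was −0.18 in daily and 0.08 in weekly libraries relative to vehicle. The one that fell against vehicle was Ankrd23, the remaining muscle ankyrin repeat gene, with 214 ± 50.9 CPM in daily and 329 ± 7.69 CPM under vehicle (change −0.65, SE 0.15, limma adjusted p = 0.0149), and −0.56 with TMM scaling (adjusted p = 0.00139). Sqstm1, an autophagy receptor recruited to the titin kinase, stood at 259 ± 41.8 CPM in daily and 372 ± 48.3 CPM in weekly libraries (−0.53, adjusted p = 0.0199). So of the 3 muscle ankyrin repeat genes, Ankrd1 was called upward in weekly libraries, Ankrd23 downward in daily libraries and Ankrd2 in neither.

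Of 19 other Z-disc genes, limma called 0 in weekly against vehicle, where 7 genes passed an unadjusted p of 0.05. There edgeR called 3, DESeq2 called 4 and limma with TMM scaling called 3 (9.94% of all genes), and every one of these calls was a fall. In daily libraries limma called 2 of the 19 genes as lower than vehicle, while 1 rose and 1 fell relative to weekly libraries. Their median change was −0.23 in daily and −0.03 in weekly libraries relative to vehicle. Myoz2, a calcineurin-binding protein of slow fibres, was at 58.8 ± 17.0 CPM in daily and 102 ± 5.69 CPM under vehicle (−0.85, limma adjusted p = 0.0383). Pdlim3, which binds alpha-actinin, was at 263 ± 56.5 CPM in daily and 378 ± 5.49 CPM under vehicle (−0.55, adjusted p = 0.0464). Daily against weekly, Sorbs2, a scaffold protein, was higher by 0.91 (103 ± 9.16 CPM in daily, 59.0 ± 22.8 CPM in weekly libraries, adjusted p = 0.0132), and Actn2, alpha-actinin 2, lower by 0.69 (761 ± 176 CPM in daily, 1261 ± 442 CPM in weekly libraries, adjusted p = 0.0413). The Actn2 call was lost without both libraries (−0.39, adjusted p = 0.0782).

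Of the 7 chaperones that act on filamin C, 1 rose in weekly against vehicle, 2 fell in daily against vehicle and 1 fell in daily against weekly. Their median change was 0.07 in daily and 0.20 in weekly libraries relative to vehicle, while that of 9 thin filament genes was −0.09 in daily and 0.10 in weekly libraries. Hspa8, the constitutive Hsc70, was at 385 ± 67.7 CPM in daily, 561 ± 25.5 CPM in weekly and 361 ± 15.1 CPM under vehicle, a change of 0.64 in weekly against vehicle (limma adjusted p = 0.00459) and of −0.56 in daily against weekly (adjusted p = 0.0134). In daily libraries 2 small heat shock genes fell, with Hspb8, the partner of Bag3, at 222 ± 44.4 CPM against 342 ± 8.63 CPM in vehicle (−0.65, adjusted p = 0.0105) and Hspb7 at 192 ± 42.1 CPM against 297 ± 9.995 CPM in vehicle (−0.66, adjusted p = 0.0356). Of 9 thin filament genes, 1 rose in weekly against vehicle and 1 fell in daily against weekly. In daily against vehicle limma called 0, with 2 at an unadjusted p under 0.05, edgeR 0 and DESeq2 1, which fell. Klhl40, which stabilises nebulin, was at 303 ± 128 CPM in weekly and 165 ± 3.03 CPM under vehicle (0.79, adjusted p = 0.023), and Lmod3, a nucleator of thin filaments, at 43.5 ± 11.4 CPM in daily and 63.9 ± 9.28 CPM in weekly libraries (−0.58, adjusted p = 0.0287).

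Among 13 genes of mechanosensitive transcription, 3 rose in weekly against vehicle, 1 rose in daily against vehicle and 1 fell in daily against weekly, with a median change of −0.04 in daily and 0.23 in weekly libraries relative to vehicle. Tead4, a TEAD factor of the family that binds MCAT elements, was at 18.6 ± 2.84 CPM in daily, 18.7 ± 1.89 CPM in weekly and 9.83 ± 0.70 CPM under vehicle, with changes of 0.88 in daily (limma adjusted p = 0.000898) and 0.89 in weekly libraries (adjusted p = 0.000569) against vehicle. Ctgf, a secreted target of YAP and TAZ, was at 37.0 ± 5.51 CPM in daily, 45.7 ± 16.7 CPM in weekly and 25.4 ± 2.41 CPM under vehicle (0.76 in weekly, adjusted p = 0.0165). The immediate early gene Egr1 was at 32.7 ± 8.54 CPM in daily, 45.0 ± 18.4 CPM in weekly and 19.6 ± 1.65 CPM under vehicle (1.10 in weekly, adjusted p = 0.00234). Wwtr1, which encodes TAZ, was at 40.7 ± 8.07 CPM in daily and 57.6 ± 5.62 CPM in weekly libraries (−0.52, adjusted p = 0.0286). With TMM scaling the daily against weekly calls of Sqstm1, Actn2, Lmod3 and Wwtr1 were lost (adjusted p between 0.0740 and 0.195), and Ctgf (0.61) and Egr1 (0.77) were also called in daily against vehicle. The direction of every call named from these lists was the same with both scalings.

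With both libraries left out, more genes of these lists were called, beside 17.2% of all genes in daily against vehicle and 23.7% in weekly against vehicle. Most of these calls over all genes were rises, 1539 against 885 falls in daily and 2827 against 502 falls in weekly libraries. Relative to vehicle, 2 titin partners rose and 4 fell in daily libraries, and 2 rose and 1 fell in weekly libraries. Of the other Z-disc genes 3 rose and 2 fell in daily, and 4 rose and 1 fell in weekly libraries. Of the filamin C chaperones 1 rose and 2 fell in daily, and 4 rose and 1 fell in weekly libraries. Of the thin filament genes 1 rose in daily and 2 in weekly libraries, and of the mechanosensitive genes 5 rose in daily, and 4 rose and 1 fell in weekly libraries. The daily median change was then 0.10 for thin filament genes and 0.07 for mechanosensitive genes, both of the opposite sign to that with all libraries. The daily median of all genes turned as well, from −0.08 to 0.04.

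Markers of other fibre states and cells moved with some of these results, and their part in them was not tested. In bulk muscle, fewer cells of a type and less RNA per cell cannot be told apart. Slow fibre markers are relevant to Ankrd2 and Csrp3: the sum of 9 markers was 237 to 852 CPM in daily, 272 to 2098 CPM in weekly and 1088 to 1246 CPM under vehicle, and 4 of 9 fell in daily against vehicle. Myh7, the slow myosin, was at 96.1 ± 73.2 CPM in daily, 368 ± 296 CPM in weekly and 413 ± 23.7 CPM under vehicle. Weekly library 4 had the highest sum and also the highest Ankrd2, Csrp3, Xirp1 and Flnc, and weekly library 2 had the lowest weekly sum and the lowest weekly value of those 4 genes. Daily libraries 1, 2, 4 and 5 had lower slow fibre sums than every vehicle library and higher Ankrd2, Csrp3 and Xirp1. Daily library 3 had the lowest sum of all libraries, 237 CPM, and lower Ankrd2, Csrp3 and Xirp1 than every vehicle library.

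**Figure D4:**
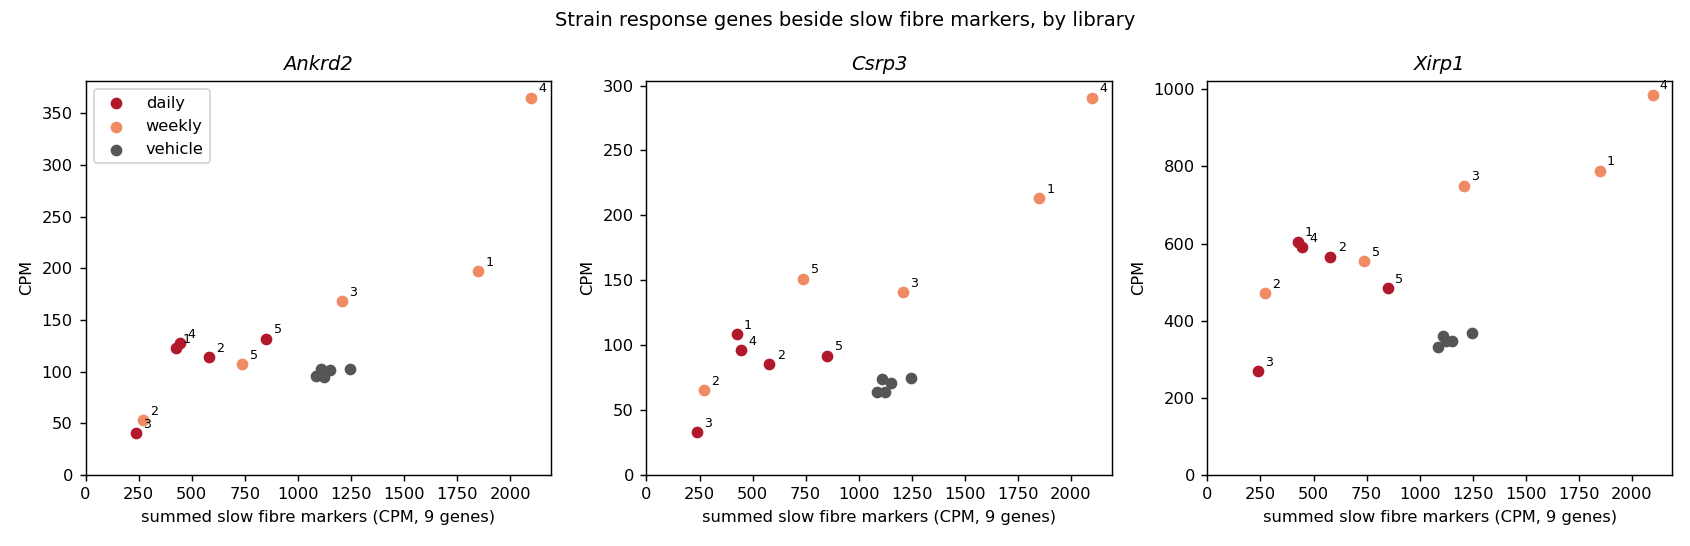
CPM of Ankrd2, Csrp3 and Xirp1 (y axes) beside the summed CPM of 9 slow fibre markers (x axis) in every library, coloured by group and numbered within the prednisone groups. The vehicle libraries sit close together at 1088 to 1246 CPM of slow fibre markers, and daily libraries 1, 2, 4 and 5 sit to their left and above them.

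Regenerating fibre markers, relevant to Xirp1, summed over 8 genes to 139 to 316 CPM in daily, 202 to 834 CPM in weekly and 173 to 189 CPM under vehicle, and 1 rose in weekly libraries; embryonic myosin Myh3 was at 88.7 ± 36.2 CPM in daily, 102 ± 124 CPM in weekly and 33.3 ± 1.71 CPM under vehicle. Without daily library 3 and weekly library 4, Myh3 was at 101.7 ± 25.2 CPM in daily and 46.2 ± 10.2 CPM in weekly libraries (SD, n = 4 each), so the order of the regimens turned. Denervation markers, relevant to Ankrd1 and Csrp3, summed over 6 genes to 131 to 235 CPM in daily, 168 to 271 CPM in weekly and 165 to 179 CPM under vehicle, and 1 rose in weekly libraries, Runx1 (70.2 ± 15.8 CPM, against 42.2 ± 3.41 CPM in vehicle). Fibroblast and matrix markers summed over 8 genes to 2024 to 3707 CPM in daily, 2189 to 25027 CPM in weekly and 2002 to 2230 CPM under vehicle, and 1 rose in weekly libraries, Col1a1. With weekly library 4 and daily library 3 left out, as in the setting that called Flnc, more of these markers were called in daily against vehicle. They stand beside 17.2% of all genes, with 1539 rises and 885 falls. Of the regenerating fibre markers 4 of 8 rose, of the denervation markers 3 of 6 rose, and of the fibroblast and matrix markers 4 of 8 rose and 1 fell, among the risers Myh3 (1.56, limma adjusted p = 1.47e-07). Col1a1 ran between 631 and 1123 CPM in daily, 578 and 7723 CPM in weekly and 395 and 439 CPM under vehicle. Its weekly change was 1.45 with all libraries and 0.76 without both.

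Adipocyte markers differed most between the regimens. The sum of 6 genes was 130 to 295 CPM in daily, 461 to 2206 CPM in weekly and 416 to 454 CPM under vehicle, with 3 genes lower in daily and 4 higher in weekly against vehicle and 5 lower in daily against weekly; Adipoq was at 12.3 ± 4.52 CPM in daily, 82.5 ± 53.2 CPM in weekly and 29.9 ± 0.58 CPM under vehicle. Both smooth muscle markers rose in weekly against vehicle and fell in daily against weekly, with Acta2 at 30.7 ± 6.62 CPM in daily, 43.3 ± 7.43 CPM in weekly and 28.0 ± 0.82 CPM under vehicle. Without both libraries the Acta2 difference between the regimens lost its call (−0.31, limma adjusted p = 0.0616). Macrophage markers summed over 7 genes to 247 to 499 CPM in daily, 175 to 1560 CPM in weekly and 396 to 431 CPM under vehicle, and 1, Cd68, fell in daily against weekly; without both libraries Cd68 was not called and 1, Itgam, rose. Of 6 tendon and junction markers, relevant to Xirp1 and Nrap, 1 fell in weekly against vehicle and rose in daily against weekly, and the sum was 208 to 323 CPM in daily, 219 to 663 CPM in weekly and 314 to 332 CPM under vehicle, with Tnmd at 6.70 ± 2.37 CPM in daily, 5.94 ± 1.72 CPM in weekly and 7.09 ± 0.91 CPM under vehicle. The 2 heart markers measured summed to 16.4 to 44.3 CPM in daily, 10.8 to 145 CPM in weekly and 41.1 to 49.5 CPM under vehicle, and limma, edgeR and DESeq2 each called 0 in every comparison (at most 1 at an unadjusted p under 0.05). Skeletal muscle markers, which fit the labelled tissue, summed over 6 genes to 33174 to 51387 CPM in daily, 42559 to 75510 CPM in weekly and 52284 to 53499 CPM under vehicle with 0 called by limma or edgeR and 1 by DESeq2 in weekly against vehicle (at most 2 at an unadjusted p under 0.05), and Ckm, muscle creatine kinase, was at 4764 ± 920 CPM in daily, 6720 ± 1613 CPM in weekly and 5818 ± 147 CPM under vehicle. No marker measured was at 0 in any library, and the markers Adgre1, Nppa, Tnni3 and Cnn1 were not analysed here.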

How the data were processed

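The authors deposited 1 table of all 15 libraries. Per the study's description, stranded total RNA libraries were made from about 1 µg of RNA out of about 30 mg of muscle, pairs of 150 bp reads were aligned with TopHat 2.1.0 to mm10 (GRCm38), and counts per gene were made with HTSeq and converted with edgeR. The labels call the deposited unit RPKM, but the values are CPM: 222090 of 222090 values (100.0%) were whole multiples of 1 read per library within 0.01 reads, the same multiple for every gene. Rows without a gene name (534, with 0.276% to 0.447% of CPM) were left out, and 0 columns had no sample.

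Genes with at least 1 CPM in 5 libraries (14059, with 213 removed; all 10 genes passed) were fitted with limma 3.58.1 in R 4.3.3 on log2(CPM + 0.5) with a mean-variance trend, group as the only term, and Benjamini-Hochberg adjustment over all genes. Fold changes on this scale understate the change of low genes. Whole reads recovered from the deposited CPM were tested with edgeR 4.0.16 and DESeq2 1.42.0 as alternatives: in weekly against vehicle edgeR called 1584 genes. The same fit was also run on simulated counts with known changes, whose spread was taken from these data. Its results are not given here. Gene positions and exon lengths came from GENCODE M21 and promoters from RefSeq. Groups followed the labels.

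The 10 genes and all lists were chosen with earlier results of these data known, and their counts are not independent evidence. All 10 genes are named, with the called genes of each partner list (up to the 4 with the smallest p) and the first gene of each marker list; other genes were named after their values were seen. Alternatives were pseudocounts, the filter, TMM scaling, edgeR, DESeq2, array weights, 2-group fits, a replicate block, averaged vehicle libraries and leaving out libraries. The fit without a trend, the ratios to Ttn and some combined settings were chosen after seeing the data.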

Additional observations from a re-analysis of the deposited data

Results flagged for a closer look

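Of 30 groups of 5 libraries (10 genes in 3 groups), 4 held a value far from the other 4 libraries, where chance gives about 1 in 20. The 10 genes share the same libraries, so the 30 checks are not independent and the 2 rates cannot be weighed against each other. All 4 values came from daily library 3 or weekly library 4. Ankrd2 was at 40.1 CPM in daily library 3, below the other daily libraries. In that library Gm26924 took 20.5% of CPM and all 10 genes were at their daily minimum. With TMM scaling Ankrd2 was still lowest there, at 61.5 TMM-scaled CPM against 110 to 138 in the other daily libraries. In weekly library 4, Xirp2 at 2530 CPM and Myot at 364 CPM stood below the other weekly libraries, and Flnc at 5312 CPM stood above them. That library had 2780768 reads, and 0.567% of CPM in mt-Rnr2 against 6.22% to 9.41% in the other weekly libraries. It had the highest weekly sum of every marker list except adipocyte, where its sum was the lowest weekly one. Skeletal muscle (75510 CPM) and slow fibre markers (2098 CPM) were thus highest there, as were fibroblast, macrophage, regenerating fibre and tendon markers. The part of all of these in the values of Xirp2, Myot and Flnc was not tested.

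Csrp3 differed between the regimens, with a daily minus weekly change of −0.997 (limma adjusted p = 0.0456). Weekly libraries exceeded every daily library in 4 of 5 cases.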

How the results depend on the processing

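Over 30 alternatives and 30 changes (10 genes in 3 comparisons), 823 values stayed on the same side of the threshold, 47 lost a call, 30 gained one, and no called change turned its sign. Xirp1 in weekly against vehicle was called under 28 of 30 alternatives, Csrp3 under 25 and Ankrd1 under 11; Csrp3 in daily against weekly was called under 9.

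The number of genes called in weekly against vehicle, 3, became 5 with array weights and 0 under either scaling when the 5 vehicle libraries entered as their average; leaving out 1 library gave 1 to 4, with 1 without vehicle library 2, 3 or 4. In daily against vehicle, 0 became 5 with array weights, 3 with TMM scaling and weekly library 4 and daily library 3 left out, 2 with DESeq2, with 2-group fits or with both libraries left out on the deposited scaling, and 1 with edgeR or TMM scaling with or without a replicate block; leaving out 1 library gave 0 to 1, the 1 without daily library 3. In daily against weekly, 1 became 4 with array weights and 0 with edgeR, 2-group fits, no mean-variance trend, averaged vehicle libraries, or any TMM setting, and with both libraries left out; leaving out 1 library gave 0 to 3, the 3 without weekly library 2. Without the mean-variance trend Ankrd1 (adjusted p = 0.0807) and the Csrp3 difference (adjusted p = 0.0786) lost their calls. The causes were not tested. The settings differed in how many of all 14059 genes they called. Unaltered, the fit called 1133, 547 and 1227 in weekly against vehicle, daily against vehicle and daily against weekly. Array weights called 5690, 3532 and 3449 in that order. In daily against vehicle, TMM scaling without both libraries called 2845 and 2-group fits 1685. With averaged vehicle libraries and deposited scaling, 7 were called in weekly against vehicle. The counts above must be read beside these totals.

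The labels do not say whether the replicate numbers pair the samples. Of the correlations of deviations between like numbers, 1 (0.146, daily against weekly) was above 0.1 and the rest were below it. Vehicle libraries varied little beyond counting noise, so correlations with them could not decide this. The replicate block called 2 genes for weekly and 0 for daily libraries relative to vehicle, and 1 between the regimens. With Neb in place of Ttn, 4 daily ratios moved beyond the spread, Ankrd1 to 0.74, Myot to 0.21, Xirp2 to 0.04 and Nrap to 0.0017 on the log2 scale.

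Vehicle libraries varied less than the others (chi-square per degree of freedom up to 2.02 between pairs, where counting noise gives 1), and the fit shares 1 estimate of the spread. Counts of at least 212 reads make counting error small beside the spread of the daily and weekly libraries. Among the vehicle libraries counting error was not small beside the spread for every gene.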
